A study of Mus musculus with 20 samples.

Results

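Cultured muscle fibres that had been given agrin for 16 h were compared with fibres that had been given only a control antibody. The comparison used 8 of the 20 libraries of the study, chosen by their titles as the 4 replicates of the control treatment and the 4 replicates of the agrin treatment, and libraries with the same replicate number were treated as a pair. All libraries came from C2C12, myoblasts of a mouse muscle line whose cells fuse into long multinucleated fibres when serum is lowered, and all cultures were differentiated for 5 days before treatment. The control group (called control below) received 7.7 nM b12 of the human IgG4 class, an antibody that serves as negative control, for 16 h. The agrin group received 0.1 nM neural agrin together with the same 7.7 nM b12 for 16 h, so both groups carried the antibody and differed by the agrin. The other 12 libraries came from the same cells under 3 treatments with MuSK antibodies and were used to estimate the spread between replicates. They also entered the filter on low counts, the scaling of libraries and the replicate block. Except in the treatment with a bivalent MuSK antibody, these cultures also received 0.1 nM agrin. They were not counted in the agrin group. The model is a single cell line with no nerve, and the labels call the replicates biological without saying what libraries of the same number share. The p-values therefore measure the spread between these samples. Total RNA was sequenced after removal of ribosomal RNA, and the 8 libraries held between 18424881 and 22643160 counts in genes.

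Agrin is the proteoglycan that a motor nerve terminal releases onto muscle. Its neural form binds Lrp4 on the muscle membrane, Lrp4 activates the receptor tyrosine kinase MuSK, and MuSK with its cytoplasmic activator Dok7 causes rapsyn to cluster acetylcholine receptors under the nerve. In muscle, nuclei near the synapse also transcribe receptor subunit genes, Musk and other synaptic genes at a higher rate than distant nuclei, a pathway in which ETS factors such as GABP, the product of Gabpa and Gabpb1, act on a promoter element named the N-box. The adult receptor carries the epsilon subunit encoded by Chrne in place of the fetal gamma subunit encoded by Chrng.

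The promoter of Chrne is shown because it is the textbook example of an N-box and because it was the only endplate promoter looked up here that held the core letters. The RefSeq window runs from 250 bases before to 50 bases after the start site on the minus strand of chr11:70619145-70619444 (GRCm38.p6), and the capitals mark the core CCGGAA, whose first base lies 76 bases before the start site.
Chrne promoter: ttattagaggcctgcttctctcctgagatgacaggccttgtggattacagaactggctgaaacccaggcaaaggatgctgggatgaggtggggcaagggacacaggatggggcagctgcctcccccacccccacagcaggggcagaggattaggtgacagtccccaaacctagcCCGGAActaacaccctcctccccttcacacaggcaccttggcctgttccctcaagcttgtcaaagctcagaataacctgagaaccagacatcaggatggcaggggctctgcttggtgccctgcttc
Of 14 endplate genes looked up, 9 had a window in the RefSeq table, namely Chrna1, Chrnb1, Chrne, Chrng, Musk, Dok7, Agrn, Ache and Utrn. CCGGAA or its reverse complement TTCCGG occurred in 14.9% of all 32851 windows of this length, so a match is a description of the letters and not evidence of a binding site.

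The libraries were those of myotubes. The 10 markers of myotube identity, among them Ckm, Myh3, Acta1, Ttn and Ryr1, were all detected in every library, and their sum was between 12033 and 15480 CPM (counts scaled to a common library total) in the controls and between 12393 and 14295 CPM with agrin. Markers of undifferentiated or reserve myoblasts, such as Pax7 and Cdh15, summed to between 554 and 754 CPM in the controls and between 617 and 748 CPM with agrin. Of 6 markers of fat 2 were in the table, and they reached at most 3 counts in a library. The markers of blood and endothelium summed to between 9 and 41 counts. Of 8 markers of neurons and Schwann cells 5 were in the table, and they summed to between 42 and 85 counts. Of 13 liver markers in the table, all 13 were detected in agrin replicate 3, where they summed to 743 counts or 31.3 CPM, against 1 to 23 counts in the other 7 libraries. Albumin (Alb) had 126 counts in that library and at most 1 count in the others. Total counts (exact permutation test, two-sided, p = 0.143), genes with at least 1 count (p = 0.257, exact) and the share of counts from mitochondrial genes, 31.6% ± 2.58 in the controls and 31.1% ± 3.29 with agrin (SD, 4 libraries each; p = 0.771, exact), overlapped between the groups. After Benjamini-Hochberg adjustment over these 3 values the p-values of the exact tests were 0.386, 0.386 and 0.771, and the smallest p that 4 against 4 libraries can give is 0.0286. Most of the mitochondrial share came from mt-Rnr2, the large mitochondrial ribosomal RNA. It held between 26.3% and 31.6% of counts in the controls and between 25.4% and 31.3% with agrin. In a principal component analysis of the 8 libraries the first component, 29.1% of the variance, set replicates 1 and 2 of both groups apart from replicates 3 and 4. The second, 21.6%, set control replicate 2 at -26.4 against -11.3 to 10.5 for the others, and the third, 13.2%, had agrin replicate 3 at 20.1 against -8.53 to 10.7. Control and agrin libraries overlapped on each of these 3 components.

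Whether agrin altered the transcriptome was asked over 14605 genes that passed a filter on low counts. None of them differed between agrin and control by edgeR's quasi-likelihood test with the replicate number as a block (0 called at a Benjamini-Hochberg adjusted p under 0.05, percent called 0), and the smallest adjusted p was 1.00. At an unadjusted p under 0.05 there were 582 genes, of which 290 were higher with agrin (1.99% of those tested) and 292 were lower (2.00%). DESeq2's Wald test called 0 genes with 694 at an unadjusted p under 0.05, limma voom called 0 with 617, and edgeR without the block called 0 with 416. The fit without agrin replicate 3, which held the liver markers, and control replicate 2, which stood apart on the second component, also called 0 genes, with 573 at an unadjusted p under 0.05. In 111 genes all 4 agrin libraries lay above all 4 controls (0.760% of the genes tested) and in 140 all lay below (0.959%). The difference had the same direction in all 4 pairs in 725 higher (4.96%) and 695 lower genes (4.76%). Because no gene passed, every difference described below is a value with its error, and each gene named had an adjusted p of 1.00 in this edgeR fit unless another setting is named.

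The data limited how large a difference could have been present. The unadjusted 95% interval of the agrin to control ratio lay wholly within a 1.5-fold change, up or down, in 9167 genes (62.8%), and within a 2-fold change in 11112 genes (76.1%). The median log2 fold change over all genes tested was 0.00, with a median standard error of 0.15. Precision followed the level of the gene. Among the 1449 genes at 100 CPM or more the median standard error was 0.07 and 99.6% lay within 1.5-fold, and among the 6819 genes between 10 and 100 CPM these values were 0.11 and 97.3%. Between 1 and 10 CPM, 27.9% of 3897 genes lay within 1.5-fold, and under 1 CPM, where the median standard error was 0.84, only 2 of 2440 did. A change of 1.5-fold was thus not resolved for most genes under 10 CPM, and differences there may be read only as not detectable with these libraries. The shares of depth and of the spread between replicates in this limit were not tested.

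**Figure D1:**
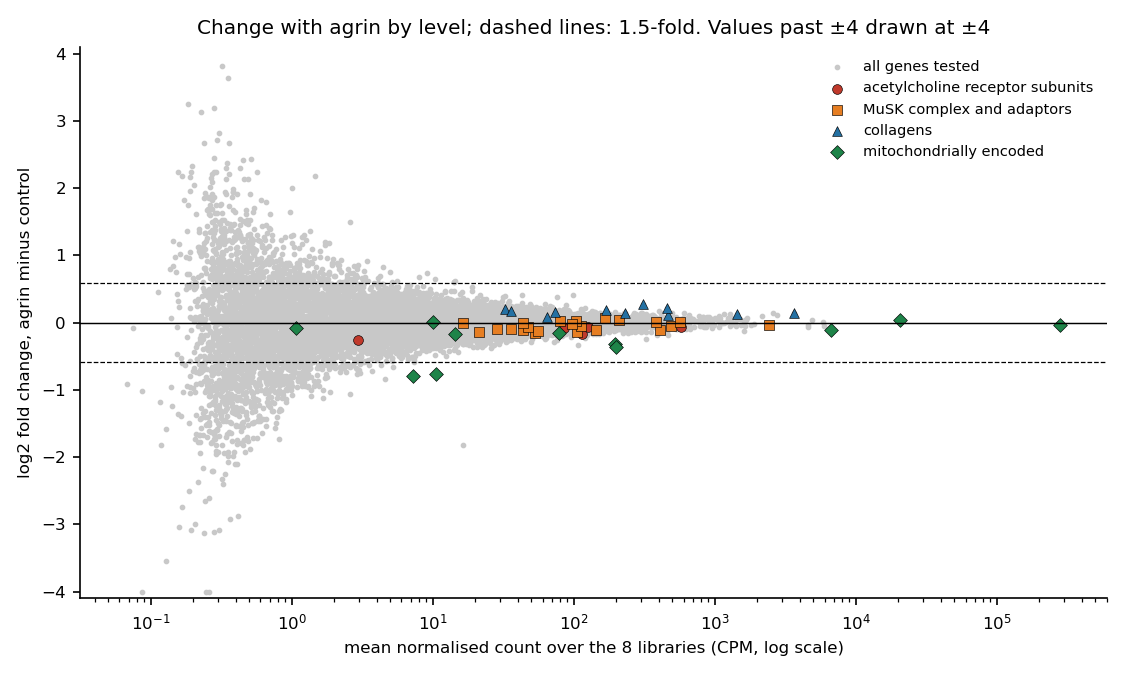
Log2 fold change (agrin minus control, vertical axis) of each of the 14605 genes tested against its mean normalised count over the 8 libraries (CPM, log scale). Grey points are all genes, coloured symbols are 4 gene lists, and dashed lines mark 1.5-fold; the spread narrows from a median standard error of 0.84 under 1 CPM to 0.07 at 100 CPM or more, and the acetylcholine receptor and MuSK complex genes lie close to 0.

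The genes of the agrin receptor complex were transcribed at like levels in both groups. Musk (chr4:58285960-58374303, plus strand, GRCm38, GENCODE release M21), the kinase itself, was at 49.5, 66.0, 51.2 and 54.7 CPM in control replicates 1 to 4 and at 43.9, 50.2, 54.6 and 51.2 CPM in the agrin replicates of the same numbers. The groups overlapped, and control replicate 2 was the highest of the 8. The log2 fold change was -0.15 ± 0.08 (SE), and its 95% interval of -0.32 to 0.02 corresponds to a ratio between 0.800 and 1.01. In replicates 1 and 2 the fitted difference was -0.29 and in replicates 3 and 4 it was -0.01. Lrp4 (chr2:91457511-91513779, plus strand), the agrin-binding co-receptor, had 207 ± 13.4 CPM in the controls and 213 ± 22.7 CPM with agrin (SD, 4 libraries each), a log2 fold change of 0.04 ± 0.07. Dok7 (chr5:35056766-35087839, plus strand), the adaptor that activates MuSK from within the cell, had 22.3 ± 2.04 and 20.4 ± 3.65 CPM and a log2 fold change of -0.14 ± 0.12. Rapsn (chr2:91035620-91045729, plus strand), which encodes the receptor-clustering protein rapsyn, had 78.7 ± 8.01 and 80.0 ± 6.64 CPM. The muscle's own Agrn (chr4:156165290-156197488, minus strand) had 16.4 ± 3.12 and 16.4 ± 2.58 CPM, and the sign of its log2 fold change of 0.00 ± 0.15 turned in 10 of 23 alternative settings. Per kilobase of exon, which allows levels of different genes to be compared, Rapsn was at 43.7 CPM per kb in the controls, Lrp4 at 19.7, Musk at 14.7, Dok7 at 5.22 and Agrn at 1.76. With agrin the order was the same, at 44.4, 20.3, 13.2, 4.76 and 1.77 CPM per kb. Lrp4 and Musk stood apart by more than their SDs of 1.3 and 2.0 in the controls.

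Seen as a list, the 22 genes of the MuSK complex and its adaptors, which besides the 5 above include the Dok7 partners Crk and Crkl, the kinases Src, Fyn, Abl1 and Abl2 and the cytoskeletal linkers Vcl, Tln1 and Macf1, held 0 genes at an unadjusted p under 0.05 in either direction. Their median log2 fold change was -0.05 against 0.00 for all genes tested, and 15 lay below 0 and 7 above. Of all 14605 genes tested, 7267 lay below 0. The 95% interval of all 22 lay within 1.5-fold, against 62.8% of all genes. That share was 97.3% among all genes between 10 and 100 CPM and 99.6% among those at 100 CPM or more. The most abundant was Macf1, a microtubule linker at the synapse, at 2434 CPM in the controls and 2393 CPM with agrin. Ctnnb1, which encodes beta-catenin, was at 569 ± 13.0 and 571 ± 33.6 CPM. Crk, an adaptor bound by phosphorylated Dok7, was lower in all 4 pairs, with a log2 fold change of -0.11 ± 0.06 and overlapping groups.

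The acetylcholine receptor subunit genes all had means below their controls, by small amounts. Chrnb1 (chr11:69784036-69795943, minus strand), which encodes the beta subunit that MuSK signalling phosphorylates, was at 128, 124, 117 and 116 CPM in control replicates 1 to 4 and at 107, 116, 103 and 107 CPM with agrin. It was lower in all 4 pairs, and the groups overlapped only where agrin replicate 2 reached the level of control replicate 4. Its log2 fold change was -0.16 ± 0.07, with an unadjusted p of 0.0181 in edgeR and a Benjamini-Hochberg adjusted p of 1.00, and the 95% interval of the ratio ran from 0.815 to 0.980. Chrna1 (chr2:73563215-73580338, minus strand), the alpha subunit that carries most of the acetylcholine binding site, was at 601, 601, 589 and 564 CPM in the controls and at 543, 572, 600 and 544 CPM with agrin. The 2 groups overlapped, and the log2 fold change was -0.06 ± 0.06. Chrnd (chr1:87190607-87200070, plus strand), the delta subunit, was at 129 ± 17.9 CPM in the controls and 123 ± 12.2 CPM with agrin, a log2 fold change of -0.06 ± 0.07.

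The fetal and the adult subunit were the least well measured of the 5. Chrng (chr1:87204657-87212694, plus strand) was at 88.4, 136, 65.0 and 67.6 CPM in the controls and at 78.3, 87.8, 82.8 and 78.1 CPM with agrin. The control libraries spread over 65.0 to 136 CPM with replicate 2 far above the rest, while the agrin libraries lay within 78.1 to 87.8 CPM. The fitted log2 fold change was -0.09 ± 0.13, it was -0.42 in replicates 1 and 2 and 0.28 in replicates 3 and 4, and its sign turned in 4 of 23 settings. The change between these pairs of replicates was 0.70 on the log2 scale with a Benjamini-Hochberg adjusted p of 0.763 by edgeR. It was called in the fit without control replicate 1 (0.94, adjusted p = 0.0051), which left control replicate 2, the high library, as the only control for replicates 1 and 2, and was 0.42 (adjusted p = 1.00) without control replicate 2. Chrne (chr11:70614883-70619216, minus strand), whose promoter is printed above, had only 36 to 90 counts a library. It was at 3.58, 4.18, 3.48 and 1.63 CPM in the controls and at 2.54, 4.18, 1.86 and 2.21 CPM with agrin. The groups overlapped fully, and the log2 fold change of -0.26 ± 0.28 left a 95% interval of the ratio from 0.565 to 1.24. Per kilobase of exon the fetal subunit was the more abundant of this pair, with 21.4 CPM per kb for Chrng and 1.90 for Chrne in the controls and 19.6 and 1.60 with agrin. Over the 5 subunits the median log2 fold change was -0.09, and it stayed between -0.18 and -0.06 under all 23 settings tried. All 5 lay below 0, as did 7267 of all 14605 genes tested. With 1 of 5 subunits at an unadjusted p under 0.05 and 0 called, the list gives no call.

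**Figure D2:**
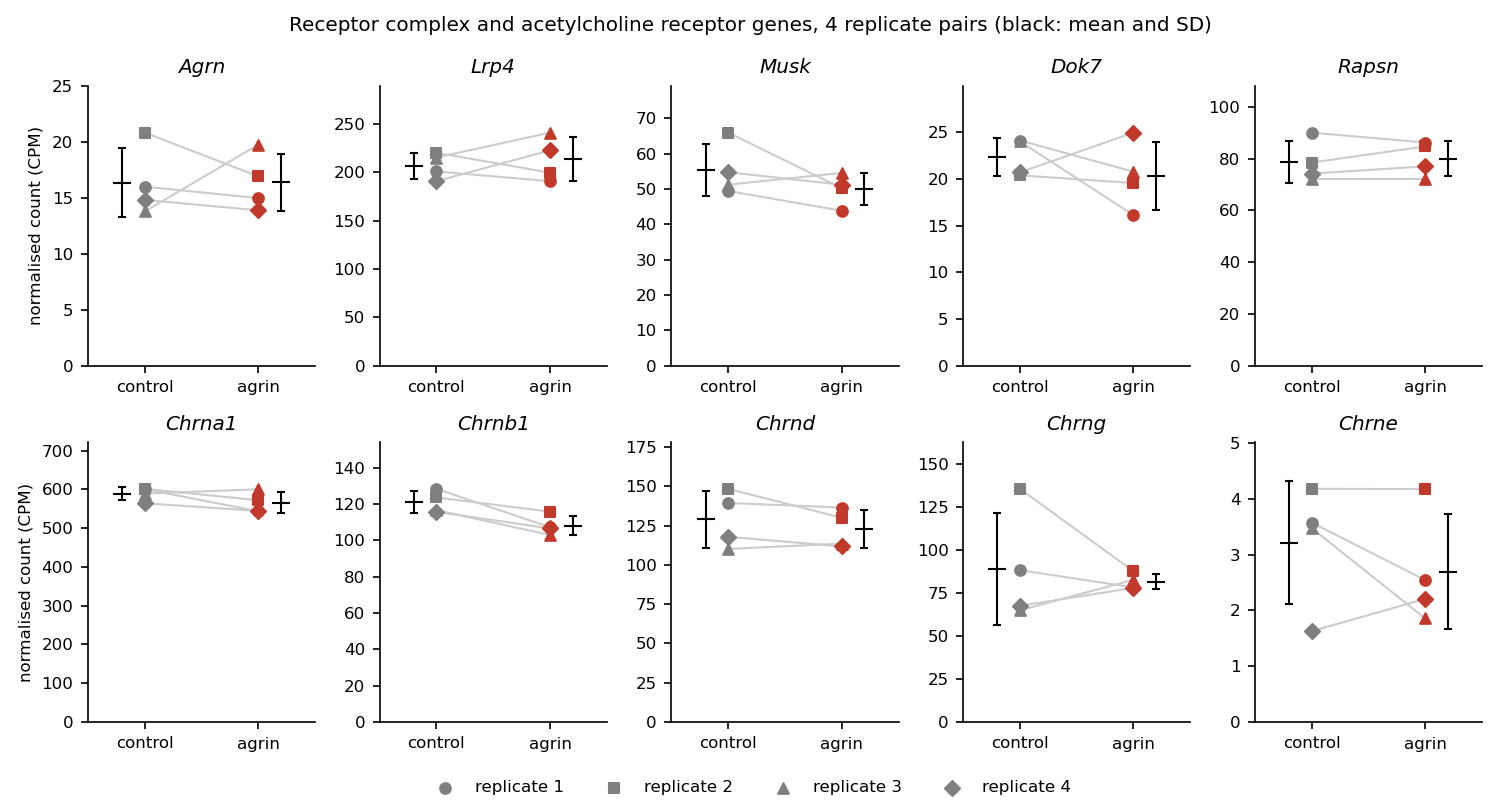
Normalised count (CPM, vertical axis, starting at 0) of 5 receptor complex genes and 5 acetylcholine receptor subunit genes in control (grey) and agrin (red) libraries, with lines joining libraries of the same replicate number and black bars for the mean and SD of 4 libraries. Chrnb1 is lower with agrin in all 4 pairs, Chrng spreads from 65.0 to 136 CPM in the controls, and the groups overlap in every panel.

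The transcription factors and signalling genes through which agrin and neuregulin are thought to reach synaptic nuclei did not stand out. Of 9 listed genes of the ETS and neuregulin pathway 8 were tested, 0 had an unadjusted p under 0.05, and the median log2 fold change was 0.03. Gabpa, the DNA-binding subunit of GABP, was at 86.9 ± 3.35 CPM in the controls and 88.5 ± 5.75 CPM with agrin, and Gabpb1, its partner, was at 13.2 ± 2.11 and 11.1 ± 1.39 CPM. Etv4, an ETS factor enriched at synapses, had a log2 fold change of 0.15 ± 0.13, and Erbb3, a neuregulin receptor, of 0.03 ± 0.07. The 10 ERK feedback inhibitors, which are read as transcriptional reporters of growth factor signalling, also held 0 at an unadjusted p under 0.05, with a median of -0.05. Among them Dusp6, an ERK phosphatase, was at 36.9 ± 2.06 and 34.3 ± 5.77 CPM.

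Of 20 immediate early genes, 1 had an unadjusted p under 0.05, and it was lower with agrin (Ier3, log2 fold change -0.24 ± 0.12). Myc, a growth regulator, was at 4.20, 4.60, 3.63 and 5.43 CPM in the controls and at 2.77, 3.29, 3.58 and 3.58 CPM with agrin. Every agrin library was below every control, by a log2 fold change of -0.43 ± 0.21, and non-overlap in this direction was seen in 0.959% of all genes. Junb and Jund, the most abundant of the list, had log2 fold changes of 0.07 ± 0.06 and 0.07 ± 0.07.

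Genes whose promoter window holds the N-box core were compared with those without it as a description. Of 3225 tested genes with the core, 116 (3.60%) had an unadjusted p under 0.05, and of 7228 without it 334 (4.62%) did. The median log2 fold change was 0.00 in both sets and 0 genes were called in either, while the median standard errors were 0.12 and 0.14.

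BMP and Wnt signalling are the other pathways that MuSK has been tied to, as a BMP co-receptor and as a Wnt-binding protein. The 16 BMP genes, which include the Id targets and also Car3, Myl2 and Rgs4, held 0 at an unadjusted p under 0.05 and had a median log2 fold change of 0.01. Id1 and Id3, direct targets of BMP receptors, were at 5.69 and 6.33 CPM in the controls and at 5.84 and 6.31 CPM with agrin. Car3, a carbonic anhydrase of slow muscle, was at 9.34 ± 4.31 CPM in the controls and 8.01 ± 5.45 CPM with agrin, with a log2 fold change of -0.35 ± 0.20. Of the 19 Wnt pathway genes tested, 3 were higher at an unadjusted p under 0.05 and 0 were lower, and the median was 0.08. Over all genes tested, 1.99% were higher and 2.00% lower at that threshold.

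The 3 Wnt genes were Sfrp2, Lef1 and Nkd2. Sfrp2, a secreted Wnt modulator, was at 4.15, 3.67, 1.18 and 1.40 CPM in the controls and at 4.86, 5.02, 4.39 and 2.83 CPM with agrin. It was higher in all 4 pairs, but agrin replicate 4 lay below 2 controls, and its log2 fold change of 0.92 ± 0.29 was 0.34 in replicates 1 and 2 and 1.56 in replicates 3 and 4. Lef1, a transcription factor that is also a target of the pathway, was at 2.62, 5.25, 2.66 and 2.22 CPM in the controls and at 3.36, 7.79, 7.42 and 3.91 CPM with agrin. It too was higher in all 4 pairs with overlapping groups, at a log2 fold change of 0.84 ± 0.28. Nkd2, a feedback inhibitor, had a log2 fold change of 0.47 ± 0.18. Axin2, the target most used as a readout of beta-catenin, was at 4.69 CPM in the controls and 4.63 CPM with agrin, a log2 fold change of 0.02 ± 0.28.

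The lists of synaptic basal lamina and membrane scaffold genes had medians near 0. All 17 basal lamina genes were tested, 0 had an unadjusted p under 0.05, and their median log2 fold change was 0.03. Itga7 and Itgb1, which form the laminin receptor of muscle, were at 1598 and 1173 CPM in the controls and at 1607 and 1165 CPM with agrin. Ache, the acetylcholinesterase gene, was near 1 CPM in both groups with a standard error of 0.59, and Colq, which encodes its collagen tail, was at 3.78 ± 2.27 and 4.88 ± 1.13 CPM. The 16 genes of the dystrophin and utrophin complex had a median log2 fold change of -0.03. Utrn, the synaptic homologue of dystrophin, was at 350 ± 53.2 and 344 ± 27.0 CPM.

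Genes that muscle raises after loss of innervation, and the muscle programme itself, were described next. Of 17 tested denervation and atrophy genes, 2 were lower at an unadjusted p under 0.05 and 0 were higher, and the median log2 fold change was -0.02. Over all genes tested, 2.00% were lower and 1.99% higher at that threshold. Fbxo30, the ubiquitin ligase MUSA1 induced by denervation, was at 45.3, 43.9, 47.1 and 46.0 CPM in the controls and at 35.9, 41.9, 40.6 and 38.4 CPM with agrin. The 2 groups did not overlap, as in 0.959% of all genes in this direction, and the log2 fold change was -0.22 ± 0.08. Cdkn1a, which encodes the cell cycle inhibitor p21, was at 130 ± 14.5 and 111 ± 10.5 CPM and lower in 3 of 4 pairs. Myog, the myogenic factor that drives receptor genes in non-innervated muscle, was at 569 ± 49.9 and 571 ± 42.2 CPM, and the atrophy ligases Trim63 and Fbxo32 had log2 fold changes of 0.16 and -0.02.

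The 13 myogenic and MEF2 factors held 0 genes at an unadjusted p under 0.05, with a median of -0.01. Mymk, the membrane protein of myoblast fusion, had a log2 fold change of -0.21 ± 0.11, which was -0.52 in replicates 1 and 2 and 0.10 in replicates 3 and 4. Of 8 myosin heavy chain genes, 2 were lower at an unadjusted p under 0.05, against 2.00% of all genes tested. Myh7, the slow myosin, was at 126, 122, 98.0 and 135 CPM in the controls and at 110, 101, 72.6 and 98.7 CPM with agrin. It was lower in all 4 pairs with overlapping groups, and its log2 fold change was -0.34 ± 0.15. Myh8, the perinatal myosin, was also lower in all 4 pairs, at -0.28 ± 0.12, while the embryonic Myh3 and the fast Myh1 were at 0.04 ± 0.15 and 0.06 ± 0.14.

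All 8 troponin genes had log2 fold changes above 0, between 0.01 and 0.10, against 7338 above 0 of all 14605 genes tested. None had an unadjusted p under 0.05, and their median of 0.07 turned sign in 2 of 23 settings. Of 23 sarcomere and Z-disc genes, 1 had an unadjusted p under 0.05. It was Des, the desmin filament gene, at 1655 to 1705 CPM in the controls and at 1473 to 1664 CPM with agrin, and its log2 fold change was -0.13 ± 0.06. Of 17 tested genes of excitation-contraction coupling, 1 had an unadjusted p under 0.05, Atp2a2, the slow calcium pump, at -0.19 ± 0.08. The 95% interval of all 17 lay within 1.5-fold, against 97.3% of all genes between 10 and 100 CPM and 99.6% at 100 CPM or more.

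The lists of nuclear metabolic genes had medians near 0. Of 14 genes of glycolysis and phosphocreatine, 2 were lower at an unadjusted p under 0.05 (Hk2, hexokinase, -0.25 ± 0.12, and Gapdh, -0.19 ± 0.08), and of 21 nuclear genes of oxidative phosphorylation 1 was higher (Cox7a1, 0.68 ± 0.31, at under 5 CPM). Over all genes tested, 2.00% were lower and 1.99% higher at that threshold. The list medians were -0.02 and 0.05, and the second turned sign in 2 of 23 settings. Gapdh has processed pseudogenes, so its reads could have been assigned to other copies.

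Genes encoded by the mitochondrial genome had the lowest median of the lists. Of 11 tested, 3 were lower at an unadjusted p under 0.05 and 0 were higher, against 2.00% and 1.99% of all genes tested. In 9 the log2 fold change lay below 0, as in 7267 of all 14605 genes. The median was -0.15, between -0.26 and -0.05 under the 22 settings that kept these genes. mt-Nd1 (chrM:2751-3707, plus strand), a subunit of complex I, was at 175, 184, 244 and 262 CPM in control replicates 1 to 4 and at 162, 138, 182 and 209 CPM with agrin. It was lower in all 4 pairs, the groups overlapped, and the log2 fold change was -0.32 ± 0.09. mt-Cytb, the mitochondrial subunit of complex III, was at 225 ± 42.3 and 175 ± 28.3 CPM and also lower in all 4 pairs, at -0.36 ± 0.12. mt-Nd2 was at 13.4 ± 5.65 and 7.64 ± 1.77 CPM, at -0.76 ± 0.22, and lower in 3 of 4 pairs. The 3 transcripts of this genome with the most counts lay nearer to 0. mt-Rnr2, the large ribosomal RNA, had a log2 fold change of -0.04 ± 0.07, mt-Rnr1, the small ribosomal RNA, of 0.04 ± 0.07 and mt-Co1, a subunit of complex IV, of -0.10 ± 0.08. Nuclear copies of mitochondrial sequence share reads with these genes, and how such reads were counted is not given in the sources used here.

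The collagen genes were on the other side of 0. All 11 tested had log2 fold changes above 0, between 0.09 and 0.27, against 7338 above 0 of all 14605 genes tested. The list median was 0.16, between 0.05 and 0.25 under the 23 settings. Of the 11 collagen genes, 2 were higher at an unadjusted p under 0.05, against 1.99% of all genes tested. Col6a1 (chr10:76708792-76726168, minus strand), a chain of the microfibrillar collagen around fibres, was at 363, 335, 203 and 236 CPM in the controls and at 366, 398, 328 and 264 CPM with agrin. It was higher in all 4 pairs, least in pair 1 and most in pair 3, the groups overlapped, and the log2 fold change was 0.27 ± 0.08. Col3a1, a fibrillar collagen, was at 3451 CPM in the controls and 3819.5 CPM with agrin, at 0.15 ± 0.06 and higher in all 4 pairs. The collagen median was 0.03 in replicates 1 and 2 and 0.36 in replicates 3 and 4, and with all libraries the difference between these pairs of replicates was called for 0 of these genes. Without control replicate 1 it was called for Col6a3, a further chain of the microfibrillar collagen, at 0.78 (edgeR, adjusted p = 0.025). Without the replicate block the unadjusted p of Col6a1 was 0.206, since its level in both groups differed between the replicates.

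Of 9 small leucine-rich proteoglycan genes tested, 8 lay above 0, against 7338 of all 14605 genes. Their median was 0.14, and its sign turned in 3 of 23 settings. Aspn (chr13:49544443-49567565, plus strand), which encodes the matrix protein asporin, was at 14.9, 16.96, 5.37 and 7.87 CPM in the controls and at 20.5, 25.3, 14.1 and 8.45 CPM with agrin. It was higher in all 4 pairs with overlapping groups and a log2 fold change of 0.61 ± 0.18. Dcn, decorin, was at 803 ± 91.8 and 847 ± 26.9 CPM.

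Cell cycle genes, which mark dividing cells, had a list median of 0.26, between 0.11 and 0.40 under the 23 settings. Of 16 tested, 13 lay above 0 and 3 below, and at an unadjusted p under 0.05 there was 1 in each direction. Of all 14605 genes tested, 7338 lay above 0. Plk1, a mitotic kinase, was at 0.894 ± 0.248 CPM in the controls and 1.89 ± 0.718 CPM with agrin, a log2 fold change of 1.09 ± 0.47 from 11 to 57 counts a library. Mcm2, a subunit of the replicative helicase, was at 21.9, 23.5, 25.4 and 22.2 CPM in the controls and at 16.8, 17.3, 20.6 and 17.6 CPM with agrin. Its groups did not overlap, as in 0.959% of all genes in this direction. Its log2 fold change was -0.37 ± 0.13, opposite in sign to the list median. In bulk RNA a lower number of cells of a type and less RNA per cell cannot be told apart.

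The remaining lists were mixed. The 15 genes of cholesterol synthesis had a median log2 fold change of 0.02, and Insig1, a sterol-regulated brake on the pathway, was at 0.22 ± 0.08. Of 11 tested interferon-stimulated genes 1 was higher and 1 was lower, namely H2-D1, a class I histocompatibility gene, at 51.4 ± 2.87 and 58.9 ± 5.20 CPM with no overlap between groups, and Bst2, a viral tethering factor, at -1.01 ± 0.41. Non-overlap in the higher direction was seen in 0.760% of all genes. H2-D1 shares reads with H2-K1 and other class I genes, so its level is uncertain. Of 11 acute phase genes and chemokines 1 was lower, the siderophore-binding lipocalin Lcn2 at -1.06 ± 0.44, and Saa3, an acute phase protein, was at 295 ± 157 and 310 ± 144 CPM. The 16 tested genes of the IGF, myostatin and TGF-beta pathways held 0 at an unadjusted p under 0.05 with a median of -0.06. Over all lists 364 of 416 genes were tested and 0 were called by edgeR.

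**Figure D3:**
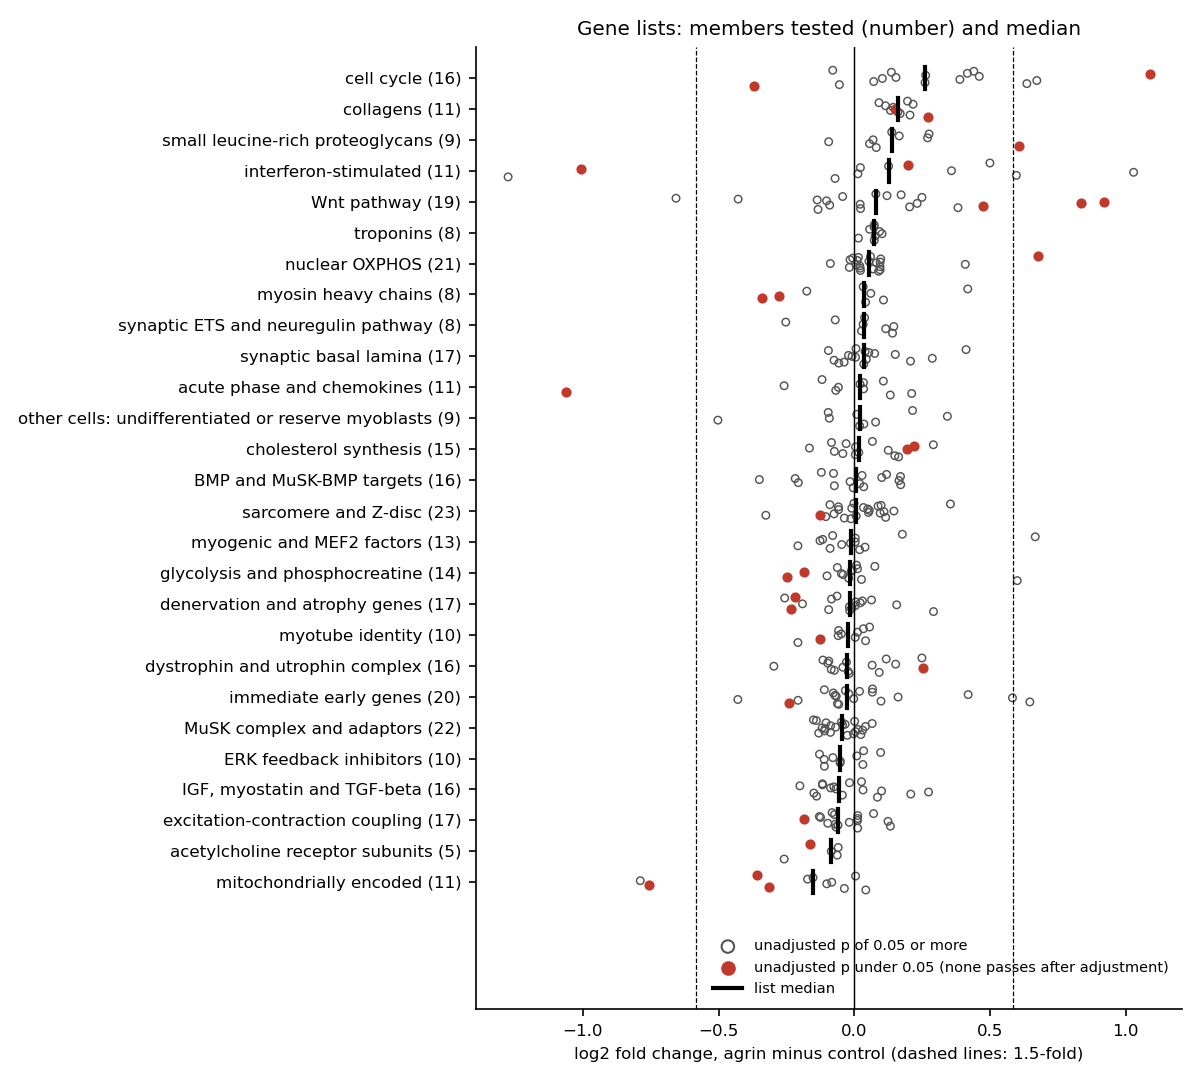
Log2 fold change (agrin minus control, horizontal axis) of each tested gene of 27 lists, with the number of genes tested in brackets, a black bar for the list median and dashed lines at 1.5-fold. Filled red points have an unadjusted p under 0.05 and none passes after adjustment; list medians run from -0.15 for mitochondrially encoded genes to 0.26 for cell cycle genes.

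The genes with the smallest p-values among those that kept 1 direction in all 4 pairs give the upper end of what was seen. On the higher side were 3 transcripts at very low levels. Cerox1, a noncoding RNA, had 1, 3, 0 and 0 counts in the controls and 7, 20, 19 and 14 with agrin. 4931431C16Rik, annotated as antisense, had 2, 0, 0 and 1 counts in the controls and 8, 20, 23 and 4 with agrin. 9230116N13Rik, a processed transcript, had 9, 5, 17 and 2 counts in the controls and 48, 30, 35 and 33 with agrin. In each of these 3 every agrin library lay above every control, as it did in 0.760% of all genes. Whether reads were counted by strand is not given in the sources used here, so the antisense transcript could include reads of its partner.

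The higher genes that were better measured had modest differences. Zbtb5 (chr4:44991242-45012412, minus strand), a zinc finger gene, was at 14.0, 12.2, 13.1 and 13.5 CPM in the controls and at 18.6, 19.3, 18.1 and 15.1 CPM with agrin. No agrin library reached down to a control, and the log2 fold change was 0.43 ± 0.13. Isg20l2, a nucleolar exonuclease gene of ribosome production, was at 31.0, 26.8, 34.3 and 30.1 CPM in the controls and at 34.8, 36.3, 40.7 and 37.3 CPM with agrin. The groups were again apart, as in 0.760% of all genes in this direction, by a log2 fold change of 0.29 ± 0.09. Gfra1, the receptor for the neurotrophic factor GDNF, was at 16.0 ± 4.48 and 21.9 ± 2.39 CPM with a log2 fold change of 0.48 ± 0.15. The histone gene H2bc14 had a log2 fold change of 0.60 ± 0.16, and H2ac10 was at 1.34 ± 1.01 and 3.84 ± 1.89 CPM. Both belong to families of near-identical copies among which reads could have been divided. Col6a1 and Aspn, described above, complete the 10 higher genes.

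On the lower side the smallest p-value of all genes, 0.000400 unadjusted in edgeR, belonged to A430110C17Rik (chr5:136345884-136350231, minus strand), a transcript the annotation marks as yet to be experimentally tested. It had 2, 15, 19 and 7 counts in the controls and 0 in all 4 agrin libraries. Its pooled control level was 15.5-fold above a floor of 3 counts over the agrin group. That ratio carries no error for the controls, whose counts varied between libraries. Pigt, a subunit of the enzyme that attaches membrane anchors to proteins, was at 14.3, 16.5, 16.5 and 16.8 CPM in the controls and at 12.1, 11.5, 11.4 and 13.6 CPM with agrin. All its agrin libraries were below the controls, at a log2 fold change of -0.40 ± 0.13. Dad1, a subunit of the oligosaccharyltransferase, was at 36.6 ± 5.57 and 29.8 ± 1.19 CPM, and Ell2, an elongation factor for RNA polymerase II, was at 21.8 ± 3.00 and 16.9 ± 2.29 CPM, both without overlap. Non-overlap in this direction was seen in 0.959% of all genes.

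Of the other lower genes, Ugcg, which encodes glucosylceramide synthase, was at 307, 360, 373 and 363 CPM in the controls and at 296, 264, 317 and 313 CPM with agrin. Agrin replicates 3 and 4 lay above control replicate 1, so the groups overlapped, and the log2 fold change was -0.24 ± 0.07. Zfp346, a double-stranded RNA-binding protein gene, had a log2 fold change of -0.33 ± 0.10, Car5b, a mitochondrial carbonic anhydrase, of -0.26 ± 0.09, and Pgam1, a glycolytic mutase with processed pseudogenes, of -0.24 ± 0.08. C920009B18Rik, a transcribed pseudogene, was at 6.33 ± 1.13 and 4.04 ± 0.578 CPM with no overlap, as in 0.959% of all genes in this direction. All 20 of these genes kept their sign in every setting that could be fitted for them, which follows in part from their having been chosen for 1 direction in all 4 pairs.

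**Figure D4:**
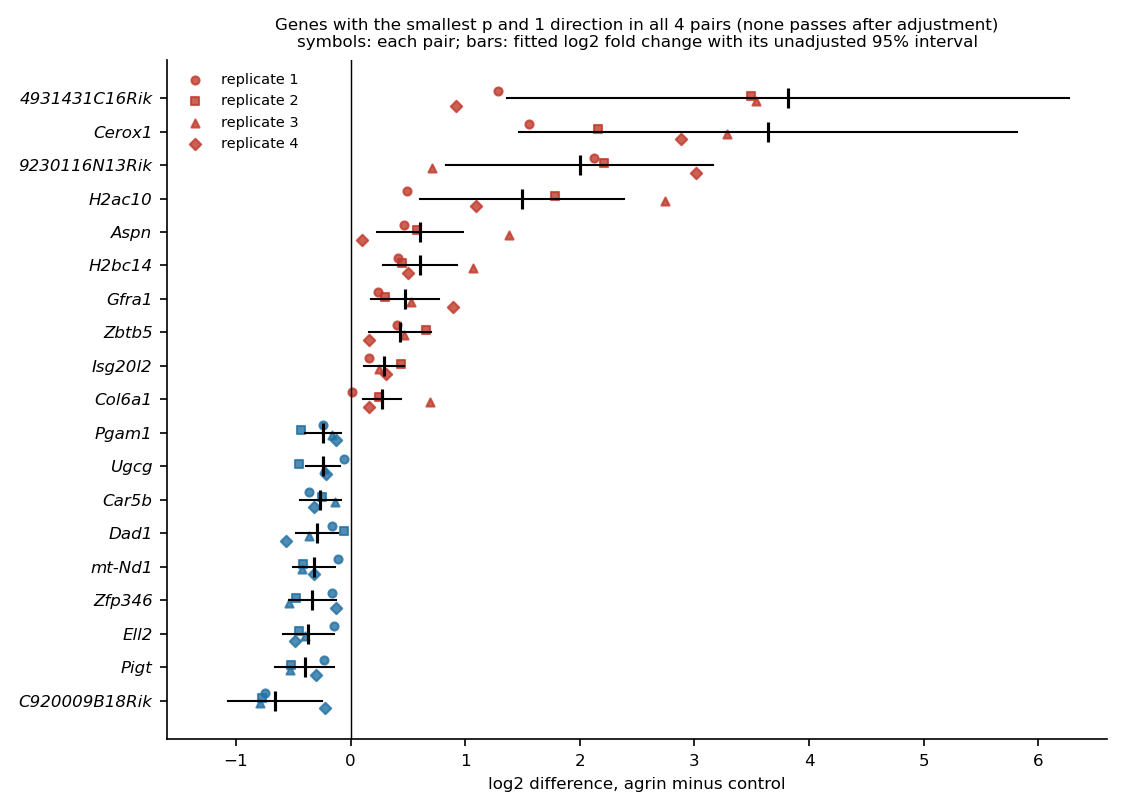
Agrin minus control log2 difference (horizontal axis) of the genes with the smallest p-values and 1 direction in all 4 pairs, with a symbol for each replicate pair and a black bar for the fitted log2 fold change with its unadjusted 95% interval. Higher genes are red and lower genes blue; the 3 transcripts at the top have the widest intervals and few counts, and A430110C17Rik, at 0 counts with agrin, is left out.

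The 4 paired differences, which share no library, did not resemble each other across genes. Over 11149 genes with a mean log2 CPM above 1, Pearson's r between the differences of 2 replicate numbers was -0.091 for 1 and 2, 0.007 for 1 and 3, 0.032 for 1 and 4, -0.044 for 2 and 3, -0.100 for 2 and 4 and 0.010 for 3 and 4. The mean of these 6 values was -0.031, and without replicate 2 it was 0.016. These are descriptions across genes, which are not independent replicates. Between 43.0% and 51.8% of genes had the same sign in 2 pairs. Pair 2 had the widest differences, with a standard deviation of 0.42 on the log2 scale against 0.28, 0.35 and 0.29 for pairs 1, 3 and 4. In pair 2 the difference was also correlated with the log2 exon length of the gene (r = -0.371, against 0.068, 0.048 and 0.038 in pairs 1, 3 and 4), so that longer genes were lower in agrin replicate 2 relative to control replicate 2. The part of that relation in the gene values above was not tested.

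**Figure D5:**
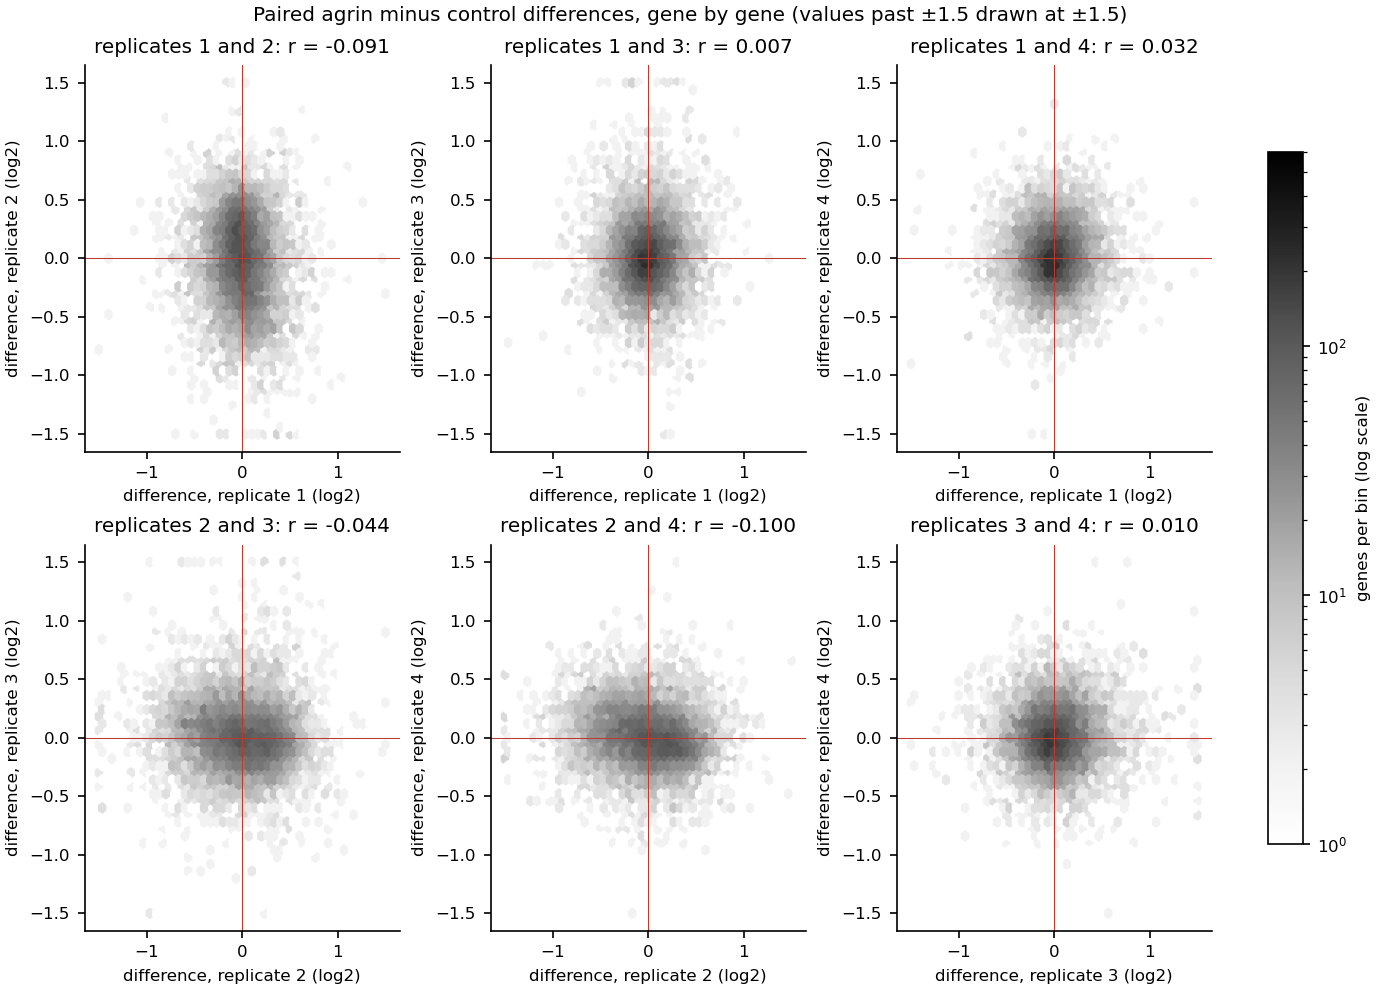
Density of 11149 genes by their agrin minus control log2 difference in 1 replicate pair (horizontal axis) against another (vertical axis), for all 6 combinations, with darker bins for more genes on a log scale. Each cloud is centred near 0 with no slope, r between -0.100 and 0.032, and the cloud is widest along the axis of replicate 2.

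Since replicates 1 and 2 stood apart from 3 and 4 in both groups, the agrin difference was also fitted within each of these pairs of replicates and the change between them was tested. By edgeR's test of that interaction 0 of 14605 genes were called (percent called 0) and 939 had an unadjusted p under 0.05, with a smallest Benjamini-Hochberg adjusted p of 0.763. The fit without control replicate 1 called 237 genes, with the change upward in 172 and downward in 65, and left control replicate 2 as the only control for replicates 1 and 2. Of the 237, 22 were on the gene lists, and 21 of these had a change above 0. Those described above were Chrng (0.94), Mymk (0.88), Ryr1 (0.82), Col6a3 (0.78), Ttn (0.64), Gapdh (0.59), Utrn (0.55), Macf1 (0.53) and Atp2a2 (0.52), as log2 changes. The fit without control replicate 2 called 0 genes and had 458 at an unadjusted p under 0.05, and there Chrng was at 0.42, Mymk at 0.34, Ryr1 at 0.18, Col6a3 at 0.47, Ttn at 0.09, Gapdh at 0.07, Utrn at 0.06, Macf1 at -0.01 and Atp2a2 at 0.04. Each fit that left out 1 of the other 6 libraries also called 0. Control replicate 2 is the library set apart on the second component.

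The number of genes called changed when the filter on low counts was taken away. With all 26190 genes that had a count in the table, edgeR called 8, which were Lars2, mt-Cytb, Cilp, mt-Nd2, H2ac10, Top2a, mt-Nd1 and A430110C17Rik. All 8 had also passed the filter and were tested with it, at nearly the same log2 fold changes. For Lars2, the mitochondrial leucyl-tRNA synthetase gene, control replicate 3 alone had 92.0 CPM, and the other 7 libraries had between 4.14 and 6.97 CPM. The fitted log2 fold change of Lars2 was -1.82 ± 0.18 (SE) without the filter and -1.81 ± 0.89 with it. The reason for the smaller error was not tested. The value of Lars2 nearest to 0 over the 23 settings was -0.14. Top2a, a topoisomerase of dividing cells, was at 77.7, 81.4, 48.2 and 54.6 CPM in the controls and at 77.6, 105, 102 and 58.7 CPM with agrin. In pair 1 it was level and in pair 3 it was furthest apart. Its adjusted p was 0.0370 in edgeR without the filter and 1.00 with it, at log2 fold changes of 0.38 and 0.39. Cilp, a cartilage matrix gene, was at 132, 157, 24.7 and 42.4 CPM in the controls and at 123, 184, 74.3 and 46.5 CPM with agrin, so that its spread between replicates 1 and 2 and replicates 3 and 4 was wider than that between the groups.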

How the data were processed

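The deposited table holds whole-number counts per gene and library for all 20 libraries, which the authors did not normalise, as read from the values themselves. The submitters' processing notes name Trim Galore 0.6.6, cutadapt 2.10, STAR 2.7.6a, HTSeq 0.12.4, DESeq2 1.32.0 and the GRCm38 build, without their roles. Which annotation was used, whether strand was used and how duplicates were treated are not given in the sources used here. Gene positions and exon lengths were taken from GENCODE release M21 by Ensembl ID, and promoter windows from RefSeq (GRCm38.p6) by symbol.

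The analysis used edgeR 4.0.16 in R 4.3.3. The filterByExpr function (minimum count 10, minimum total 15), run on all 20 libraries, kept 14605 of 26722 genes. With the 8 compared libraries alone it kept 13511. Libraries were scaled by TMM, and 1 robust quasi-likelihood model with treatment and replicate number was fitted to all 20 libraries, leaving 12 residual degrees of freedom (8 for the interaction). Tests were two-sided, with Benjamini-Hochberg adjustment over all genes tested and a threshold of 0.05. CPM values use TMM-scaled totals, log2 CPM a prior count of 2, and a standard error was taken as the log2 fold change over the root of F. At these depths 3 counts, the floor for detection, correspond to between 0.125 and 0.153 CPM in the 8 libraries. Intervals cover counting error and the spread between these libraries only, and floors cover counting error only.

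Libraries were grouped by their treatment labels. Named genes were the 5 receptor complex and 5 receptor subunit genes, the 10 higher and 10 lower genes with the smallest p and 1 direction in all 4 pairs, the genes with the smallest p and the highest level of each list, and genes called in any setting. Id1, Id3, Axin2, Nkd2, Ache, Trim63, Fbxo32 and mt-Co1 were added as members of these lists after their values were seen. Values of some list members are not reported here. The comparison, its members and the gene lists were chosen with earlier results of these data known. The fitting code was tested on simulated data. Alternatives were the fit without the block, other blocks, scaling, filters, DESeq2 1.42.0, limma 3.58.1, only the 8 libraries, and leaving out libraries.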

Additional observations from a re-analysis of the deposited data

Results flagged for a closer look

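In 265 groups of 4 libraries examined for a library far from its group, 18 were flagged, and chance flags about 1 in 20 groups, which is about 13 of 265. The criterion is the gap of the highest or lowest library to its nearest neighbour as a share of the group's range, above Dixon's 95% critical value. None of these flags was tested further.

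Among the controls, replicate 3 stood apart for Lars2, the mitochondrial leucyl-tRNA synthetase gene, at 92.0 CPM against 4.89 to 6.97 in the other 3. Control replicate 2 stood apart for Lef1 at 5.25 CPM (2.22 to 2.66 in the others) and for Myog at 495 CPM (585 to 601). Control replicate 1 stood apart for Pigt at 14.3 CPM (16.5 to 16.8), Col5a2, a fibrillar collagen, at 1475 CPM (1332 to 1337) and H2-K1, a class I histocompatibility gene, at 84.1 CPM (69.9 to 72.2). Control replicate 4 stood apart for Cd68, a macrophage marker, at 1.54 CPM (0.372 to 0.525) and for the number of genes with a count, 17586 against 17905 to 17950.

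Among the agrin libraries, replicate 3 stood apart for the sum of liver markers at 31.3 CPM (0.409 to 0.798), for Apob, 1 of those markers, at 8.81 CPM (0.227 to 0.657) and for Atp5b, an ATP synthase subunit, at 1273 CPM (1329 to 1339). Agrin replicate 2 stood apart for Ell2 at 13.5 CPM (17.8 to 18.3), Lgals1, a galectin, at 3058 CPM (2775 to 2822) and Ecm2, a matrix protein, at 7.18 CPM (3.25 to 3.82). Agrin replicate 1 stood apart for 9230116N13Rik at 2.18 CPM (1.37 to 1.48) and Bmpr1a, a BMP receptor, at 252 CPM (239 to 239). Agrin replicate 4 stood apart for Grem1, a BMP antagonist, at 382 CPM (225 to 242) and B2m, the class I light chain, at 276 CPM (241 to 245).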

How the results depend on the processing

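The count of genes called was 0 in 22 of 23 alternatives and 8 without the filter on low counts, 4 of them on the gene lists, and over all 23 the genes at an unadjusted p under 0.05 numbered 319 to 851. Without the replicate block 0 genes were called and the number whose 95% interval lay within 1.5-fold was 8894, against 9167 with it, and the block changed no other call. Libraries of the same number deviated together by r = 0.247, 0.00824, 0.207 and 0.200 for numbers 1 to 4, a mean of 0.165, against a mean of 0.188 for different numbers within replicates 1 and 2 or within 3 and 4. The pairing by number therefore rests on the titles alone. Leaving out 1 or 2 of the 8 compared libraries kept the count called at 0, the count within 1.5-fold between 8295 and 8853, the mean r of the paired differences between -0.0528 and 0.0163, and the agrin minus control mitochondrial share between -1.498 and 0.661 percentage points. The count within 1.5-fold was 8945 with the 8 libraries alone and 9308 without 1 library outside the comparison. For the interaction, leaving out 1 library gave 0 to 237 genes, the highest without control replicate 1, where the lone control of replicates 1 and 2 is assumed to vary like the other groups. The cause of these changes was not tested. The 128 named genes kept their sign in all alternatives in 84 cases, and 7 of 27 list medians did. Alternatives chosen after seeing the data were the fits without control replicate 2 and agrin replicate 3 together and without 1 library outside the comparison, the paired differences under other settings (-0.0753 for genes above a mean log2 CPM of 5, -0.0309 with DESeq2 size factors) and the mitochondrial share without each library. A change of 1.5-fold was not resolved for most genes under 10 CPM.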
